A study of Mus musculus with 16 samples.

Results

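Liver RNA-seq libraries of fed mice labelled as lacking Slc25a47 in hepatocytes (KO) were compared with those of fed control mice (WT). The comparison covered every gene of the count table. Each group had 4 libraries, and no label says that they come from separate animals. These 8 libraries were chosen by their labels from the 16 of the series, the other 8 being liver libraries of the same 2 genotypes after a fast. Of the 53714 genes in the table, 13905 passed a filter on low counts and were tested. All mice were males aged 9 weeks of the strain labelled C57BL/6 Slc25a47tm1c(EUCOMM)Hmgu, a conditional allele of the European knockout programme, and the fed groups had a chow diet. KO mice carried the genotype Slc25a47hep-/- and WT mice the genotype Slc25a47hep+/+. Not given in the sources used here were the driver of the deletion and whether WT livers carried the conditional allele without it.

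Slc25a47 belongs to the mitochondrial carrier family, whose members move metabolites, nucleotides and cofactors across the inner mitochondrial membrane, and it is expressed mainly in liver. When mitochondria or the protein-folding compartments of a cell are disturbed, kinases that phosphorylate the translation factor eIF2α slow protein synthesis while the mRNA of the transcription factor ATF4 is translated more. ATF4 and its partners then raise genes for amino acid synthesis and uptake and hormones such as FGF21, a programme known as the integrated stress response. Liver fibrosis is known as the build-up of matrix by hepatic stellate cells, which TGFβ and PDGF signals activate.

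The targeted gene was low in each KO library. Slc25a47 (ENSMUSG00000048856, GRCm38 chromosome 12, 108836046 to 108856815, forward strand) had 9079, 15546, 13545 and 17047 counts in the 4 WT libraries and 2006, 3204, 3996 and 3012 counts in the 4 KO libraries. Scaled, this was 461, 621, 628 and 836 CPM in WT and 81.8, 123, 153 and 146 CPM in KO libraries, where CPM is counts per 1 M (mega) gene reads, with library sizes adjusted by TMM (trimmed mean of M values). The highest KO library thus stood below the lowest WT library, and the log2 fold change, KO over WT, was -2.34 ± 0.25 (SE; edgeR adjusted p = 1.32e-05). Nnt, a mitochondrial transhydrogenase gene that C57BL/6J mice carry in a truncated form, had between 8 and 15 counts in every fed library of both groups.

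Gene reads numbered 20.6 to 27.3 M in WT and 19.6 to 24.1 M in KO libraries. The first principal component of the 8 libraries accounted for 59.7% of the log2 CPM variance, with the genotypes on either side. The second held 9.61% and placed replicates 1 and 2 of both genotypes on one side and replicates 3 and 4 on the other; no label names a batch. Reads of the 20 most abundant genes made up 29.4% ± 0.723 of gene reads in WT and 26.2% ± 1.39 in KO libraries (SD, n = 4; exact two-sided permutation p = 0.0286, the lowest possible for 4 against 4, or 0.0476 adjusted over 5 measures). Summed hepatocyte markers lay between 176991 and 192032 CPM in WT and between 132325 and 170305 CPM in KO libraries. Of the 20 markers 2 were higher and 9 were lower (3 and 7 with library totals). This was 55% called against 30.9% of all tested genes. Library totals in place of TMM shifted the median gene from -0.00827 to 0.215 on the log2 scale. Where this shifted the balance of a gene list by over 10 percentage points, the counts with library totals stand in parentheses after the list's own. Such counts are also given for some lists whose balance shifted by less, among them the matrix genes as a whole. Of the genes named below, Bhmt, Cdh2, Chac1, Opa1, Prodh, Tfr2 and Xbp1 were called with TMM and not with library totals (adjusted p from 0.0501 for Bhmt to 0.826 for Opa1), and Col3a1, Dele1, Gclm, Krt7, Krt19, Lrat and Tomm20 the reverse.

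The genotype difference was broad. With edgeR's quasi-likelihood test, 4299 of 13905 genes (30.9%) passed an adjusted p under 0.05, 1948 higher (14%) and 2351 lower (16.9%) in KO. In 3345 of them the 4 KO libraries and the 4 WT libraries did not overlap, against 28.4% of all tested genes without overlap. Most differences were small: 2424 of the called genes differed by under 1.5-fold, 874 (6.29% of tested genes) by at least 2-fold, of which 482 were higher (3.47%) and 392 lower (2.82%), 249 by at least 4-fold and 94 by at least 8-fold. Rises prevailed among the large changes, with 63 higher and 31 lower at 8-fold. Among the 964 most abundant genes, at or above a mean log2 CPM of 7, 49.1% were called, 149 higher and 324 lower. Among the 2845 least abundant, under a mean log2 CPM of 1, 21.4% were called, 412 higher and 198 lower.

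**Figure D1:**
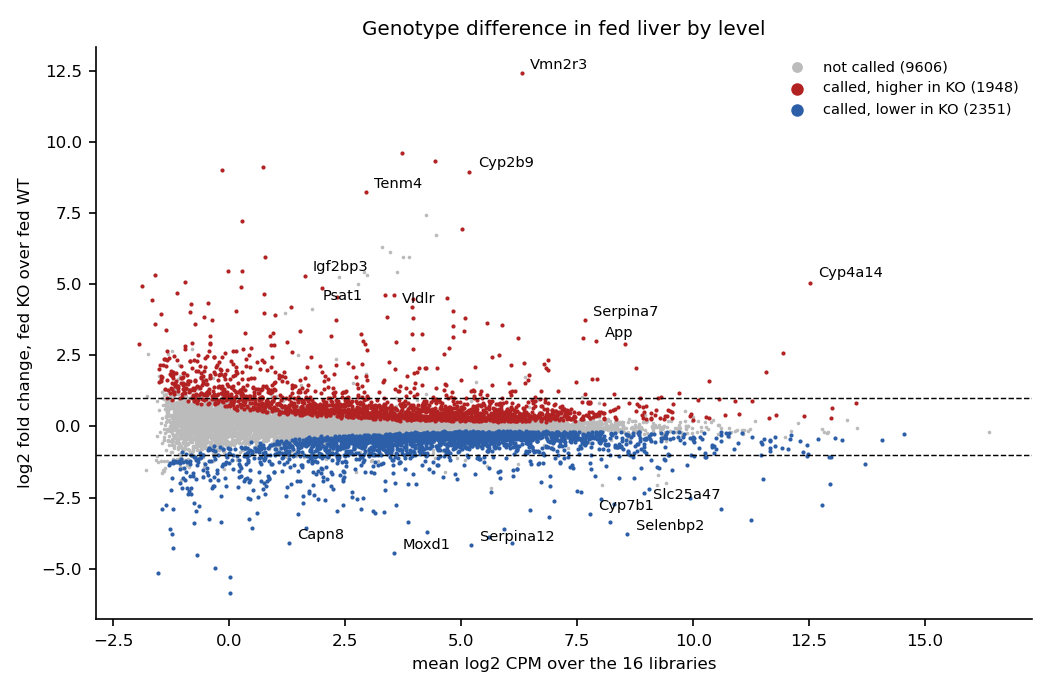
Log2 fold change, fed KO over fed WT, of all 13905 tested genes (y axis) against mean log2 CPM over the 16 libraries of the fit (x axis), with genes called higher in red, lower in blue and uncalled in grey. The 482 genes higher and 392 lower by at least 2-fold lie beyond the dashed lines, and named genes among the largest changes carry their symbols.

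The largest rises were cytochrome P450 genes and genes that WT liver hardly transcribed. Cyp3a44, Cyp2a4 and Cyp2b9, P450 genes that are known for higher levels in female than in male mouse liver, had 4, 7 and 14 counts over the 4 WT libraries and 3756, 5238 and 7952 over the 4 KO libraries. Vmn2r3, a vomeronasal receptor gene, and Tenm4, a teneurin adhesion gene, had 2 and 4 counts in WT and 15153 and 1524 in KO. Every KO library had at least 192 counts of each of these 5 genes and no WT library more than 6. Cyp2a22, a further P450 gene, had 0.6596, 0.1599, 0.51004 and 0.343 CPM in WT and 20.97, 42.3, 71.98 and 68.3 CPM in KO libraries, a log2 fold change of 6.95 ± 0.52 (SE; adjusted p = 9.15e-07). The transcription factor gene Tcf24 had 0.457, 0.07996, 0.51004 and 0.343 CPM in WT and 8.73, 10.6, 7.37 and 13.6 CPM in KO libraries (4.88 ± 0.42). Gldn, which encodes a cell adhesion protein of the peripheral nerve, had 0.203, 0.6396, 0.139 and 0.0981 CPM in WT and 7.14, 6.703, 6.07 and 7.18 CPM in KO libraries (4.54 ± 0.33). In each of the 3 genes the KO libraries all exceeded the WT libraries, which was a condition for naming them among the largest rises. The WT level was near the limit of detection and the fold depends on it. Members of one P450 family share sequence, and reads that align to several places are not in these counts, so the split between paralogs is uncertain.

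Among abundant genes, rises included secreted proteins and the fatty acid hydroxylases of the Cyp4a family. Serpina7, which encodes thyroxine-binding globulin, had 45.6, 47.97, 42.1 and 23.8 CPM in WT and 401, 489, 624 and 601 CPM in KO libraries, a log2 fold change of 3.73 ± 0.26 (adjusted p = 3.16e-07). App, which encodes the amyloid precursor protein, had 67.7, 51.7, 65.9 and 58.5 CPM in WT and 499, 395, 511 and 537 CPM in KO libraries (2.99 ± 0.12; adjusted p = 1.61e-11). Apcs, which encodes serum amyloid P component, had 125, 139.8, 68.9 and 72.6 CPM in WT and 860.2, 608, 726 and 818 CPM in KO libraries (2.89 ± 0.43; adjusted p = 3.10e-04). The groups did not overlap in any of these 3 genes.

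The largest falls were spread over secreted proteins, a protease and enzymes. Serpina12, the gene of the adipokine vaspin, had 111, 155, 115 and 118 CPM in WT and 8.57, 10.4, 4.2998 and 4.51 CPM in KO libraries, and Moxd1, a monooxygenase-like gene, had 6.34, 38.4, 5.24 and 31.4 CPM in WT and 2.65, 0.575, 0.307 and 0.0971 CPM in KO libraries. Serpina12 was uniformly low in KO, at -4.16 ± 0.29 (SE), whereas Moxd1 varied among WT libraries and had a wide error (-4.46 ± 1.15). Capn8, a calpain protease gene, had 4.21, 6.16, 2.41 and 4.46 CPM in WT and 0.286, 0.498, 0.115 and 0.0485 CPM in KO libraries (-4.11 ± 0.39). Selenbp2, a selenium-binding protein gene, had 897, 1802, 1097 and 1279.9 CPM in WT and 175, 91.3, 58.7 and 46.5 CPM in KO libraries (-3.77 ± 0.58; adjusted p = 4.27e-04). C4a, a gene of the sex-limited form of complement C4, had 61.2, 102, 28.5 and 42.8 CPM in WT and 4.41, 5.32, 4.45 and 3.74 CPM in KO libraries (-3.71 ± 0.37), and its close paralog C4b makes its count uncertain. In these genes the KO libraries all lay below the WT libraries, which was a condition for naming them among the largest falls. The acid phosphatase gene Acpp had 32.9, 23.7, 11.7 and 11.2 CPM in WT and 3.14, 2.95, 2.38 and 1.02 CPM in KO libraries (-3.05 ± 0.45), and the glucuronosyltransferase gene Ugt2b38 had 29.8, 30.8, 25.5 and 27.4 CPM in WT and 7.51, 2.18, 2.65 and 1.75 CPM in KO libraries (-3.002 ± 0.43). Mup1, Mup7, Mup12, Mup14 and Mup21, of the major urinary protein cluster, and Serpina1e, of the α1-antitrypsin cluster, were also among the largest falls, with log2 fold changes of -3.17 ± 0.45, -3.30 ± 0.61, -3.89 ± 0.38, -2.89 ± 0.56, -3.35 ± 0.26 and -2.76 ± 0.38. Their copies are near-identical, so the values of single members are uncertain. Cyp7b1, the oxysterol hydroxylase gene, had 387 to 543 CPM in WT and 32.4 to 84.97 CPM in KO libraries (-3.07 ± 0.36).

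The integrated stress response was described through 33 tested genes of its sensors, transcription factors and effectors. Of these, 14 were higher and 4 were lower (20 and 2 with library totals), or 54.5% called against 30.9% of all tested genes. Some of the members bear, within the 300 bases around their annotated start, the composite C/EBP-ATF element to which ATF4 is known to bind as a dimer with C/EBP proteins. The letters TGATGNAA were searched on both strands of the RefSeq promoter windows of GRCm38.p6, from 250 bases before to 50 after the start. They stood in 3.97% of 32851 windows, and in 2.85% of the 7298 uncalled genes with an entry. Among genes higher by at least 2-fold the share was 8.31% (27 of 325), and among genes lower by at least 2-fold 4.71% (12 of 255). For genes higher by less than 2-fold it was 2.99%. A match of letters is a description and does not show binding.

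The windows below show the element, in capitals, with up to 25 bases on each side for 6 genes that rose and for Chac1, which fell although it holds the same letters. All lie upstream of the annotated start and are written 5′ to 3′ on the strand of the gene, so TTGCATCA is the element on the opposite strand.
Asns: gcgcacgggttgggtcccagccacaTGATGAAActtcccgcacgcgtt
Pycr1: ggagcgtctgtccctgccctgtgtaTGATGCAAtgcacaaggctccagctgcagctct
Nupr1: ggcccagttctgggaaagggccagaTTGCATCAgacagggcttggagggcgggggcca
Fgf21: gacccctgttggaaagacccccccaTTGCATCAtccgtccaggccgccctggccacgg
Vldlr: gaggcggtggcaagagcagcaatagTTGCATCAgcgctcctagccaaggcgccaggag
Slc7a7: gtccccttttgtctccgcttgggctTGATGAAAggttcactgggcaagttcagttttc
Chac1: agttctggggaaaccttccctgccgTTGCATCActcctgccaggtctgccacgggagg

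These windows lie at chr6:7693210-7693257 (Asns, reverse strand), chr11:120643819-120643876 (Pycr1, reverse), chr7:126625548-126625605 (Nupr1, reverse), chr7:45615597-45615654 (Fgf21, reverse), chr19:27216795-27216852 (Vldlr, forward), chr14:54418053-54418110 (Slc7a7, reverse) and chr2:119351024-119351081 (Chac1, forward) of GRCm38.p6. The element began 23 bases before the start in Asns and 200 bases before it in Vldlr, and its flanks differed among the 7 genes. Herpud1, Got1 and Jdp2 hold the same letters and were not called, at -0.27 ± 0.26, -0.10 ± 0.17 and -0.02 ± 0.27 (log2 fold change, SE).

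Most sensors of the response did not pass the test at the mRNA level. Of 9 sensor and relay genes, 1 was higher and 1 was lower (4 and 1 with library totals), or 22.2% called. Eif2ak3, the gene of the endoplasmic reticulum kinase PERK, was higher at 0.40 ± 0.14, a call lost without KO replicate 2 or 3 or WT replicate 1 or 2 (adjusted p from 0.0587 to 0.107), and Eif2ak2, the gene of the double-stranded RNA kinase PKR, was lower at -0.82 ± 0.14. Dele1 and Oma1, whose products relay mitochondrial stress to the kinase HRI, stood at 0.02 ± 0.07 and 0.05 ± 0.10, and Eif2ak1, the HRI gene, at -0.11 ± 0.06. These 3 did not pass, and mRNA levels do not report kinase or protease activity.

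Transcription factors of the response had 6 higher and 1 lower of 12 (8 and 0 with library totals), or 58.3% called. Nupr1, a stress-induced chromatin protein gene, had 1.27, 0.999, 0.788 and 1.18 CPM in WT and 26.6, 28.1, 27.3 and 14.3 CPM in KO libraries, a log2 fold change of 4.51 ± 0.51 (SE; adjusted p = 3.88e-05). Ddit3, the gene of CHOP, had 3.501, 1.88, 3.99 and 3.97 CPM in WT and 7.75, 17.4, 11.2 and 9.07 CPM in KO libraries (1.78 ± 0.37; adjusted p = 0.00283). In both, each KO library was above each WT library. Atf4 itself, regulated mainly in translation, had 82.7, 78.3, 85.1 and 72.2 CPM in WT and 94.6, 117, 115 and 101 CPM in KO libraries, a smaller rise of 0.43 ± 0.10 (adjusted p = 0.00286). Cebpg, an ATF4 partner, rose by 0.56 ± 0.10.

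Effectors had 7 higher and 2 lower of 12 (8 and 1 with library totals), or 75% called against 30.9% of all tested genes. Trib3, a pseudokinase gene, had 4.92, 5.32, 9.04 and 7.698 CPM in WT and 49.9, 89.7, 56.2 and 38.8 CPM in KO libraries (3.12 ± 0.39; adjusted p = 9.22e-05), and all KO libraries were higher. Fgf21, the gene of a fasting and stress hormone, had 3.197, 1.72, 3.06 and 3.73 CPM in WT and 13.5, 46.5, 35.8 and 46.9 CPM in KO libraries (3.62 ± 0.41; adjusted p = 3.98e-05), with KO replicate 1 the lowest of its group and still above the WT range. Vldlr, a lipoprotein receptor gene, had 0.6596, 0.4797, 1.16 and 0.588 CPM in WT and 11.1, 17.9, 21.998 and 20.5 CPM in KO libraries (4.63 ± 0.29). Against them stood Chac1, a glutathione-degrading enzyme gene and a known ATF4 target, with 7.05, 7.92, 7.42 and 7.55 CPM in WT and 4.77, 4.02, 1.96 and 3.01 CPM in KO libraries. All of its KO libraries lay below the WT libraries, at -1.12 ± 0.34 (adjusted p = 0.0214). That call was lost without KO replicate 3 (adjusted p = 0.0658) or 4 (0.0558) and with no filter on low counts (0.0588), with the same direction each time.

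**Figure D2:**
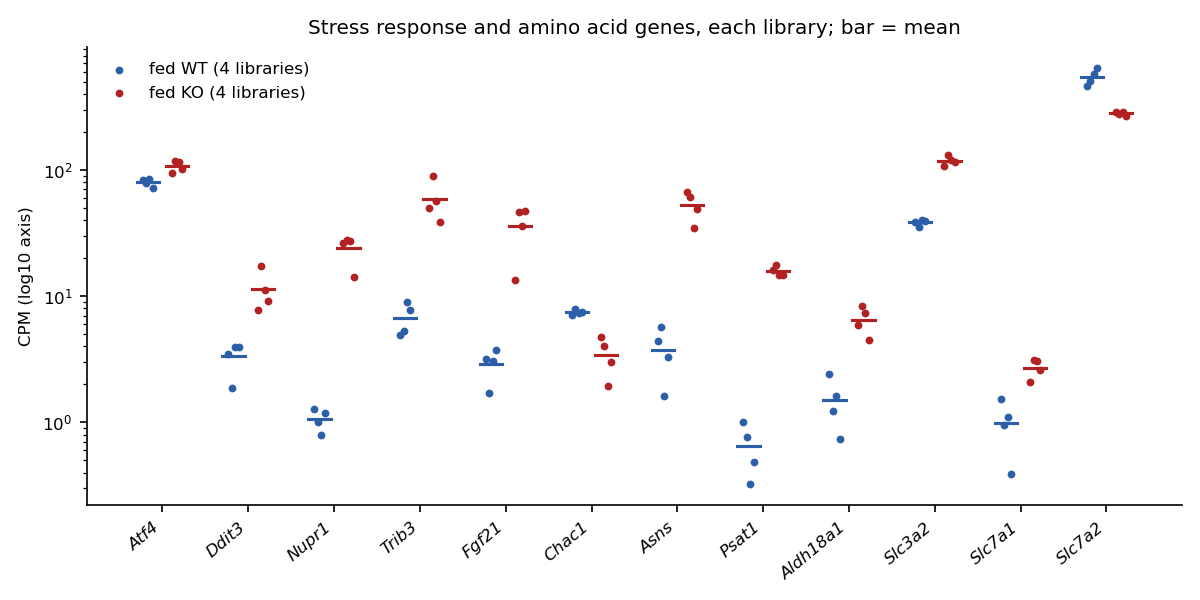
CPM on a log10 axis in each of the 4 fed WT (blue) and 4 fed KO (red) libraries for 12 genes of the stress response, amino acid synthesis and amino acid uptake, with a bar at each group's mean. KO points lie above WT points for each gene but Chac1 and Slc7a2, where they lie below.

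The synthesis enzyme genes Asns, Pycr1 and Aldh18a1 were higher, and Aspg and Prodh, which break asparagine and proline down, were lower. Asns, asparagine synthetase, had 4.41, 5.68, 1.62 and 3.29 CPM in WT and 66.8, 61.4, 34.5 and 49.3 CPM in KO libraries, a log2 fold change of 3.81 ± 0.36 (SE; adjusted p = 6.59e-06). Of the proline branch, Pycr1 had 0.406, 0.2399, 0.139 and 0.0981 CPM in WT and 1.75, 1.72, 1.65 and 1.504 CPM in KO libraries (2.89 ± 0.37) and Aldh18a1 had 2.44, 1.24, 1.62 and 0.735 CPM in WT and 5.91, 8.35, 7.37 and 4.46 CPM in KO libraries (2.12 ± 0.27). In all 3 the groups were separate, and Prodh, which breaks proline down, was lower at -0.43 ± 0.11. The WT level of Pycr1 was near the limit of detection, and the size of its fold depends on it. Over the 17 tested enzymes of asparagine, proline and glutamate, 4 were higher and 3 were lower (9 and 1 with library totals). This was 41.2% called against 30.9% of all tested genes. Aspg, asparaginase, was lower at -0.69 ± 0.09, opposite to Asns.

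The serine and one-carbon list had 6 higher and 11 lower of 39 (17 and 3 with library totals), or 43.6% called against 30.9% of all tested genes. Psat1 and Psph, the later enzymes of serine synthesis, rose by 4.61 ± 0.25 and 0.63 ± 0.14, while Phgdh, the first, had too few reads to be tested. Psat1 had 1.01, 0.7596, 0.325 and 0.4903 CPM in WT and 16.2, 17.7, 14.8 and 14.8 CPM in KO libraries, so every KO library was above every WT library. The size of its fold depends on the low WT level. In mitochondrial folate metabolism, Mthfd2 had 2.04 to 2.41 CPM in WT and 3.92 to 6.74 CPM in KO libraries (1.20 ± 0.21) and Mthfd1l had 0.232 to 0.4398 CPM in WT and 0.971 to 1.88 CPM in KO libraries (1.91 ± 0.28). Mthfd1l was near the limit of detection in WT, and the size of its fold depends on it. Enzymes of serine breakdown and glycine cleavage had 0 higher and 3 lower of 8 (3 and 1 with library totals), or 37.5% called. Sds, serine dehydratase, was lower in every KO library, with 107, 146, 195 and 173 CPM in WT and 75.7, 61.2, 59.2 and 67.7 CPM in KO libraries (-1.24 ± 0.20). Bhmt, which remethylates homocysteine with betaine, was lower at -0.67 ± 0.19, and Ftcd, which breaks histidine down to feed the folate pool, at -0.77 ± 0.12. Mat1a, which makes S-adenosylmethionine, and Cth, of transsulfuration, were higher at 0.66 ± 0.09 and 0.57 ± 0.16. None of the 10 cytosolic folate enzymes was higher and 2 were lower (2 and 1 with library totals), or 20% called.

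Amino acid transporters had 10 higher and 6 lower of 24 (11 and 4 with library totals), with 66.7% called. Slc3a2, the heavy chain shared by several exchangers, had 38.9, 35.5, 40.3 and 39.3 CPM in WT and 107, 131, 119.9 and 116 CPM in KO libraries (1.62 ± 0.11; adjusted p = 6.37e-09), and its light chain partner Slc7a7 had 3.58 to 4.41 CPM in WT and 7.76 to 9.15 CPM in KO libraries (1.04 ± 0.14). The cationic amino acid transporter genes changed in opposite directions. Slc7a1 had 1.52, 0.959, 1.11 and 0.392 CPM in WT and 2.08, 3.103, 3.07 and 2.62 CPM in KO libraries (1.45 ± 0.27), and Slc7a2, the abundant liver form, had 464, 503, 577 and 643 CPM in WT and 286, 279, 288 and 267 CPM in KO libraries (-0.97 ± 0.10). Slc7a1 was thus higher and Slc7a2 lower in every KO library, and Slc7a2 remained the one with far more reads. The neutral amino acid carriers Slc1a4 and Slc1a5 were higher at 1.23 ± 0.22 and 0.79 ± 0.16, and Slc38a4 was lower at -0.72 ± 0.08.

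Most of the matrix genes that passed the test were higher. Of 113 tested matrix genes, 51 were higher and 9 were lower (73 and 6 with library totals), or 53.1% called against 30.9% of all tested genes. Their median log2 fold change was 0.41 against -0.00827 over all tested genes. The interstitial collagen gene Col1a1 had 3.86, 2.798, 2.36 and 3.19 CPM in WT and 8.69, 6.47, 5.41 and 6.697 CPM in KO libraries (1.16 ± 0.24; adjusted p = 0.00164). The basement membrane gene Col4a1 had 54.8, 53.9, 47.5 and 42.9 CPM in WT and 135, 99.8, 109 and 129 CPM in KO libraries (1.25 ± 0.11; adjusted p = 3.34e-07). Both were higher in every KO library. Of the 7 fibrillar collagens 4 were higher and 2 were lower, of the 22 basement membrane genes 10 were higher and 2 were lower (13 and 1 with library totals), and of the 8 other collagens 5 were higher and 0 were lower. The shares called were 85.7%, 54.5% and 62.5%. Col1a2, Col5a2 and Col6a3 were higher at 0.73 ± 0.15, 0.70 ± 0.16 and 0.69 ± 0.10. Col3a1, at 0.67 ± 0.29, did not pass (adjusted p = 0.0962), although it was higher in every KO library. In a fit of the 8 fed libraries alone Col3a1 passed (adjusted p = 0.0154), and without WT replicates 1 and 2 it did not (0.255).

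Some matrix genes ran against the list. Col27a1 had 28.3, 27.02, 42.3 and 47.3 CPM in WT and 13.01, 14.4, 9.099 and 8.78 CPM in KO libraries (-1.67 ± 0.22), Lama3, a laminin chain gene, had 10.6, 10.95, 9.69 and 11.7 CPM in WT and 5.91, 3.98, 2.27 and 2.38 CPM in KO libraries (-1.55 ± 0.26), and Col5a3 had 46.5, 38.4, 51.9 and 50.7 CPM in WT and 25.2, 26.1, 23.9 and 22.8 CPM in KO libraries (-0.93 ± 0.11). Each of the 3 was lower in every KO library. The laminin genes Lama5, Lamb1 and Lamb2 went the other way, at 0.73 ± 0.12, 0.59 ± 0.11 and 0.60 ± 0.13. Among glycoproteins and proteoglycans 19 were higher and 2 were lower of 34 (25 and 1 with library totals), or 61.8% called. Elastin (Eln), lumican (Lum) and decorin (Dcn) rose by 1.02 ± 0.22, 0.74 ± 0.15 and 0.49 ± 0.09, and Ccn1, a matricellular gene, was lower at -0.70 ± 0.13. Collagen folding and cross-linking enzymes had 5 higher and 0 lower of 18 (10 and 0 with library totals). This was 27.8% called against 30.9% of all tested genes. Among those higher was the lysyl hydroxylase gene Plod1 at 0.37 ± 0.09.

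Matrix proteases and their inhibitors had 8 higher and 3 lower of 24 (15 and 2 with library totals), or 45.8% called. Mmp12, the macrophage elastase gene, had 0.232 to 0.7596 CPM in WT and 0.816 to 4.2998 CPM in KO libraries (2.44 ± 0.65) and Mmp2, a gelatinase gene, had 2.44 to 4.21 CPM in WT and 5.14 to 6.85 CPM in KO libraries (0.84 ± 0.17). Reck, a membrane-bound inhibitor, and Mmp19 were lower at -0.87 ± 0.16 and -0.66 ± 0.11. Timp1, a common fibrosis marker, had too few reads to be tested.

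Stellate cell markers rose along with the matrix. Of 20 markers 16 were higher and 0 were lower, 3 of them also in the matrix list, and their summed level was 539 to 633 CPM in WT and 769.99 to 864 CPM in KO libraries. The resting-cell genes Reln and Ecm1 were higher at 0.37 ± 0.08 and 0.47 ± 0.09, and the transcription factor gene Lhx2 at 0.97 ± 0.20, whereas Lrat, which stores retinoid, at 0.37 ± 0.18 did not pass with all libraries (adjusted p = 0.12) and passed without WT replicate 1 (0.00223). The contractile gene Acta2 had 5.99, 4.88, 3.43 and 6.23 CPM in WT and 12.3, 7.01, 7.102 and 6.502 CPM in KO libraries (0.68 ± 0.22; adjusted p = 0.0251). Its call was lost without KO replicate 1, the library with the most of it (0.43; adjusted p = 0.118), and without WT replicate 2 or 3 (0.0608 and 0.0799). In bulk liver, more cells of a type and more RNA per cell cannot be told apart. Portal fibroblast markers had 4 higher and 0 lower of 8, endothelial markers 4 higher and 1 lower of 20 (13 and 0 with library totals) and macrophage markers 4 higher and 0 lower of 19 (12 and 0 with library totals). The shares called were 80% for stellate, 50% for portal fibroblast, 25% for endothelial and 21.1% for macrophage markers, against 30.9% of all tested genes. Summed portal fibroblast markers overlapped fully, at 37.9 to 54.4 CPM in WT and 38.6 to 51.5 CPM in KO libraries. Summed endothelial markers were 712 to 783 CPM in WT and 777 to 838 CPM in KO libraries. Summed macrophage markers were 429.9 to 683 CPM in WT and 589 to 686 CPM in KO libraries. Summed bile duct markers were 109.5 to 119 and 152 to 168 CPM, but only Anxa4 of the 9 was called (0.80 ± 0.06; 5 and 0 with library totals). Summed levels were lower in KO for markers of lymphocytes and neutrophils (26.2 to 44.3 CPM in WT and 12.8 to 26.7 CPM in KO libraries), erythroid cells (244 to 265 CPM in WT and 142 to 233 CPM in KO libraries) and adipocytes (2926 to 3136 CPM in WT and 1292 to 1871 CPM in KO libraries), with overlap in the first; no gene of these lists was called higher, and 2 of 14, 1 of 6 and 2 of 4 were called lower. The gap in the erythroid sum depended on TMM scaling. As an unscaled percentage of gene reads, WT values (0.0234 to 0.0246) fell inside the KO span (0.0162 to 0.0266). Here KO replicate 1 had the highest value. The exact two-sided permutation test of this percentage did not pass (p = 0.143, also 0.143 adjusted over 5 measures). The adipocyte genes Adipoq, Plin1 and Retn had at most 4, 3 and 5 counts in any fed library, and Lep had 0. The adipocyte sum thus came from other genes of its list, among them Car3 and Adrb3, which were called lower. Whether adipocytes were fewer was not tested. No marker of stellate cells, endothelium or bile ducts was at 0 in all fed libraries. The part of these cell types in the matrix values was not tested.

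**Figure D3:**
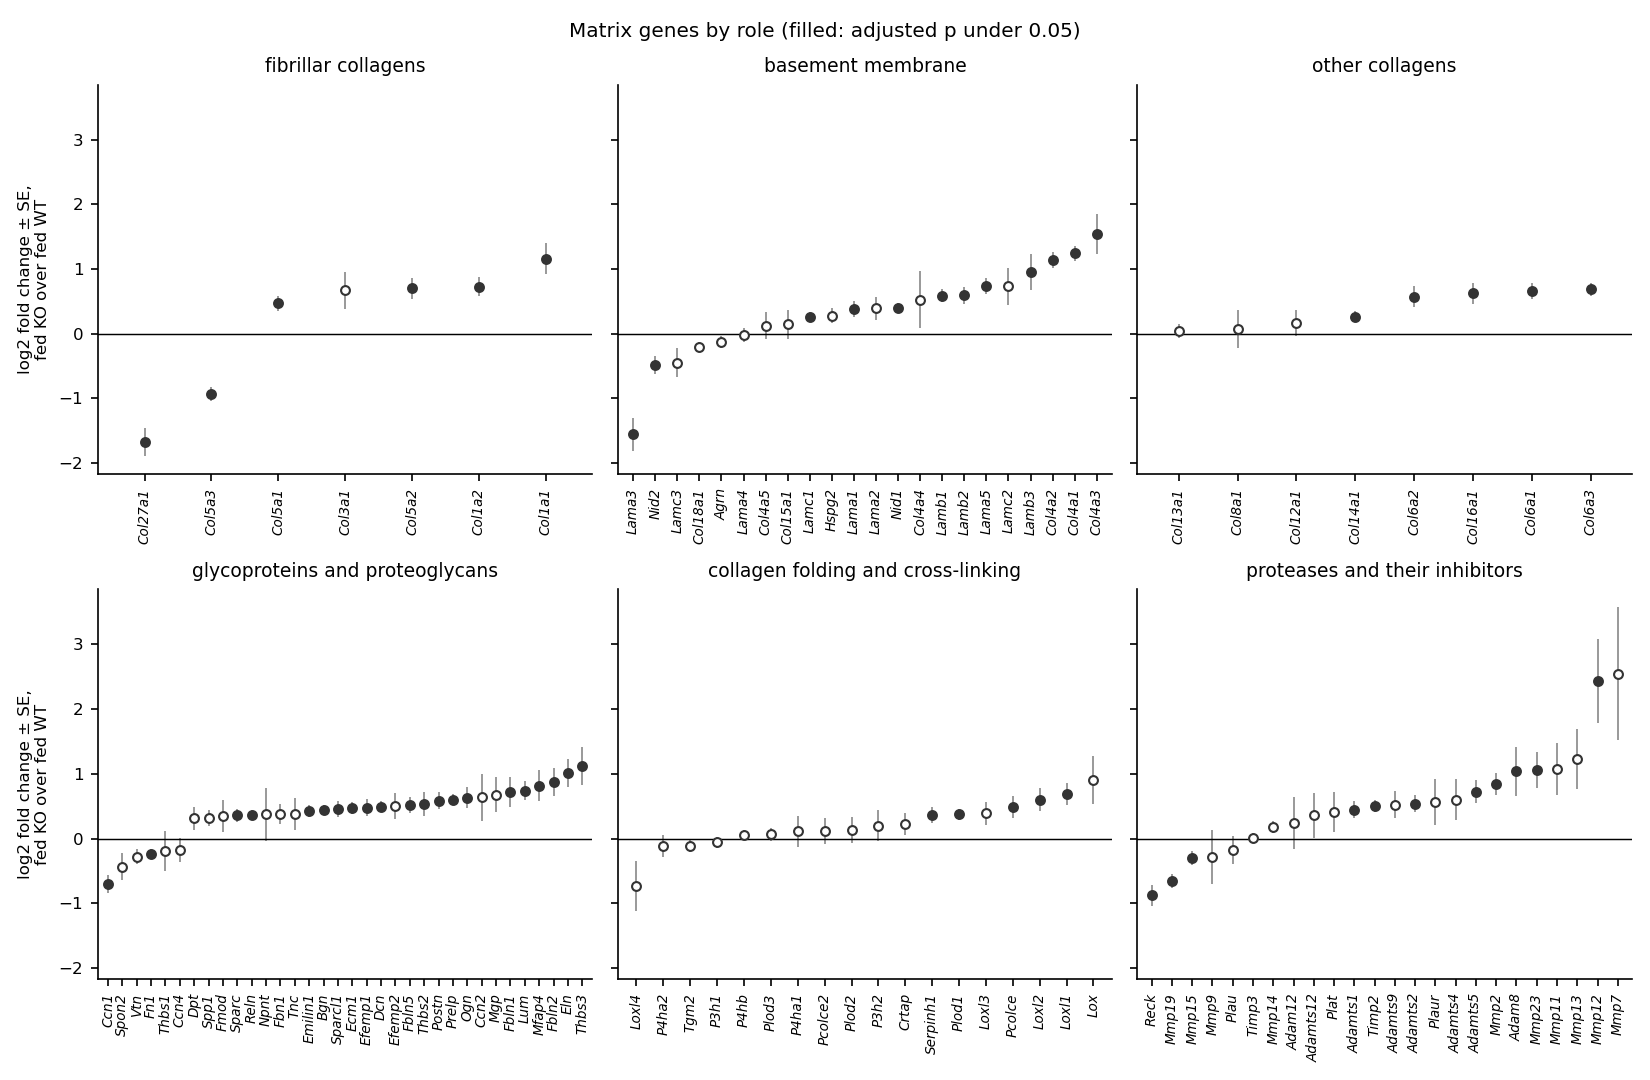
Log2 fold change, fed KO over fed WT, with its standard error for tested matrix genes, in 6 panels by role and sorted by value. Filled points passed the test, and most lie above 0 with Col27a1, Lama3 and Col5a3 below it.

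Genes of the signals known to drive fibrosis changed in both directions. The TGFβ, activin and BMP list had 16 higher and 6 lower of 59 (25 and 2 with library totals), or 37.3% called. Tgfb1 had 5.28, 4.76, 4.59 and 5.099 CPM in WT and 6.49, 5.44, 6.07 and 5.97 CPM in KO libraries, a small difference of 0.28 ± 0.10 (adjusted p = 0.0456) that was not called by DESeq2 (adjusted p = 0.0618) or without any of 6 single libraries (up to 0.126 without KO replicate 1). Of 11 receptors only the endothelial co-receptor gene Eng passed with TMM (0.31 ± 0.07), and 5 were higher with library totals. The latent TGFβ binding protein gene Ltbp4 was higher at 0.46 ± 0.10. Among targets, Tgfbi rose by 0.61 ± 0.09, and Ccn2, at 0.64 ± 0.36, did not pass. Inhbc, a liver activin gene, was lower at -0.65 ± 0.12.

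Growth factor genes had 8 higher and 6 lower of 45 (15 and 6 with library totals), or 31.1% called against 30.9% of all tested genes. The stellate receptor gene Pdgfrb was higher at 0.59 ± 0.09, and Ddr1, a collagen receptor gene, had 1.32, 1.16, 1.02 and 0.834 CPM in WT and 3.02, 2.07, 2.96 and 2.43 CPM in KO libraries (1.27 ± 0.22). Some receptor genes of hepatocytes were lower. Ghr, of growth hormone, had 694, 629, 714 and 691 CPM in WT and 385, 358, 284 and 329 CPM in KO libraries (-1.01 ± 0.09), and Erbb4 and Met stood at -1.13 ± 0.21 and -0.49 ± 0.08. Ddr1 was above and Ghr below the WT range in every KO library. Fgf1 had 88.5 to 134 CPM in WT and 39.3 to 58.99 CPM in KO libraries (-1.31 ± 0.14), and Egfr, at -0.50 ± 0.24, did not pass (adjusted p = 0.134, and 0.0133 without WT replicate 3).

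The list of liver injury and ductal genes had 12 higher and 0 lower of 33 (22 and 0 with library totals). This was 36.4% called against 30.9% of all tested genes. Of those higher, Trem2 and Gpnmb are also in the macrophage marker list. Krt23, a stress-induced keratin gene of liver, had 0.964, 0.959, 2.04 and 2.21 CPM in WT and 15.8, 13.1, 14.3 and 14.8 CPM in KO libraries (3.24 ± 0.43; adjusted p = 1.06e-04). Tuba8, a tubulin gene, had 1.62, 0.5997, 1.298 and 1.81 CPM in WT and 13.8, 17.05, 23.1 and 21.2 CPM in KO libraries (3.84 ± 0.22; adjusted p = 3.35e-09). Abcc4, an export pump gene that is known to rise in cholestasis, had 3.91, 4.597, 3.76 and 3.43 CPM in WT and 17.4, 9.499, 28.6 and 20.6 CPM in KO libraries (2.27 ± 0.26; adjusted p = 1.27e-05). In the 3 genes no KO library reached down to a WT library. Sox4, Anxa2 and Ly6d rose by 1.69 ± 0.23, 1.48 ± 0.14 and 2.99 ± 0.40, whereas the bile duct keratins Krt7 and Krt19 at 0.90 ± 0.35 and 0.93 ± 0.37 and Sox9 at -0.28 ± 0.34 did not pass. Without KO replicate 4 both keratins passed (adjusted p = 0.0379 and 0.0201). Itga6, a laminin-binding integrin gene, had 2.23 to 2.597 CPM in WT and 14.7 to 21.9 CPM in KO libraries (2.96 ± 0.22), the only integrin of 13 that changed more than 2-fold and passed. Among lysosomal genes Cd63, a vesicle tetraspanin gene, had 1.85 to 2.16 CPM in WT and 7.62 to 15.9 CPM in KO libraries (2.67 ± 0.21) and the cathepsin gene Ctsl had 576 to 615 CPM in WT and 1486 to 2002 CPM in KO libraries (1.61 ± 0.11). The lysosome and autophagy list as a whole had 8 higher and 13 lower of 38 (13 and 1 with library totals), or 55.3% called.

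In the YAP-TEAD list 7 were higher and 4 were lower of 34 (15 and 1 with library totals), or 32.4% called against 30.9% of all tested genes. Of its 19 targets 6 were higher and 1, Ccn1, was lower (9 and 1 with library totals), with Gadd45a and Nt5e at 2.09 ± 0.46 and 1.93 ± 0.22. Of its 15 regulators 1 was higher, Tead1 at 0.84 ± 0.15, and 3 were lower (6 and 0 with library totals). The shares called were 36.8% of targets and 26.7% of regulators. Cell death genes had 4 higher and 10 lower of 35 (8 and 5 with library totals), or 40% called. Gsdmd, the pore-forming gasdermin gene of pyroptosis, was lower at -0.79 ± 0.11.

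Most called genes of the coagulation list, which covers clotting factors, inhibitors and fibrinolysis, were lower. The list had 1 higher and 17 lower of 28 (5 and 9 with library totals), or 64.3% called, with a median of -0.34. Clotting factors had 1 higher and 9 lower of 17 (5 and 7 with library totals), or 58.8% called. Inhibitors and fibrinolysis genes had 0 higher and 8 lower of 11 (0 and 2 with library totals), or 72.7% called. F11, factor XI, had 128, 171, 141 and 135 CPM in WT and 56.7, 56.3, 39.2 and 49.4 CPM in KO libraries (-1.51 ± 0.13; adjusted p = 3.79e-07), and Klkb1, plasma prekallikrein of the contact system, had 196, 205, 229.98 and 228 CPM in WT and 122, 125, 106 and 126 CPM in KO libraries (-0.84 ± 0.14). The fibrinogen genes Fga, Fgb and Fgg stood at -0.96 ± 0.15, -0.88 ± 0.15 and -0.78 ± 0.16. F11 and Klkb1 were below the WT range in every KO library. Vwf, an endothelial gene, was the 1 member that was higher (0.42 ± 0.14), with overlapping groups and no call without KO replicate 2 (adjusted p = 0.0937) or WT replicate 2 or 3 (0.0966 and 0.0792).

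Cytokine signalling genes depended on which WT libraries were compared. The inflammation list had 2 higher and 9 lower of 45 (10 and 5 with library totals), or 24.4% called against 30.9% of all tested genes. Cxcl1, a neutrophil chemokine gene, had 54.5, 55.05, 7.23 and 7.85 CPM in WT and 5.02, 8.62, 4.76 and 7.96 CPM in KO libraries, and Socs3, a feedback inhibitor of cytokine signalling, had 54.5, 15.4, 8.02 and 11.6 CPM in WT and 5.96, 4.86, 5.03 and 6.99 CPM in KO libraries. WT replicates 1 and 2 stood well above the other WT libraries in Cxcl1, and WT replicate 1 above the rest in Socs3. Without WT replicates 1 and 2 the list had 7 higher and 6 lower, Cxcl1 stood at -0.20 (adjusted p = 0.664) and Socs3 at -0.78 (adjusted p = 0.162), against -2.25 ± 0.62 and -1.97 ± 0.56 with all libraries. Fgb moved from -0.88 ± 0.15 to -0.55 (adjusted p = 0.00538), and the acute phase gene Hp from -1.01 ± 0.29 to -0.63 (adjusted p = 0.176). Xbp1, a factor of the unfolded protein response, moved from -0.57 ± 0.18 to -0.10 (adjusted p = 0.546). In the same fit Acta2, Bhmt, Chac1, Cth, Ehhadh, Eif2ak3, Tgfb1 and Vwf also lost their calls, with adjusted p from 0.0609 (Bhmt) to 0.264 (Eif2ak3). The receptor genes Lifr and Il1r1 passed in both fits. Lifr had 543, 653, 556 and 542 CPM in WT and 247, 209.7, 186 and 225 CPM in KO libraries (-1.40 ± 0.10), and -1.34 without them (adjusted p = 9.32e-07), and Il1r1 moved from -1.55 ± 0.38 to -0.76 (adjusted p = 0.0479, but 0.0549 in a fit of the 8 fed libraries alone). Leaving those libraries out, the number of called genes fell from 4299 to 2908. The matrix list then had 46 higher and 8 lower, the stellate markers 14 and 0, and the stress response list 9 and 2. The coagulation list had 0 higher and 12 lower, with F11 at -1.46, in the same fit.

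The list of secreted factors and binding proteins split, with 14 higher and 8 lower of 31 (16 and 4 with library totals). This was 71% called against 30.9% of all tested genes. Of those higher, Gpnmb is also in the macrophage and Angptl6 in the stellate marker list, and the cells of origin were not tested. Higher were Igfbp1, an IGF-binding protein gene, with 230.4 to 490.3 CPM in WT and 601 to 883 CPM in KO libraries (1.04 ± 0.25) and Igfbp2 at 0.69 ± 0.14. Lower were Igf1 and Igfals, of the circulating IGF complex, at -0.52 ± 0.10 and -0.64 ± 0.13. Hamp, the gene of the iron hormone hepcidin, had 387, 557, 434 and 425 CPM in WT and 77.4, 292, 79.5 and 64.3 CPM in KO libraries (-1.81 ± 0.44; adjusted p = 0.00824, and 0.0517 in a fit of the 8 fed libraries alone). KO replicate 2 was 3.7 to 4.5 times as high as the others, yet all lay below the WT range. The iron and metal genes, Hamp included, had 5 higher and 7 lower of 18 (6 and 3 with library totals), among them the ferritin gene Fth1 at 0.44 ± 0.09 and the transferrin receptor gene Tfr2 at -0.29 ± 0.08. Of the 18, 66.7% were called.

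Liver transcription factor genes were called at about the share of all genes. Of 72, 13 were higher and 9 were lower (25 and 4 with library totals), or 30.6% against 30.9% of all tested genes. Hnf4a, Cebpa and Foxa2 stood at -0.17 ± 0.14, -0.23 ± 0.11 and -0.04 ± 0.15, none past the test. Ppara, which drives fatty acid oxidation, had 68.2, 88.9, 87.7 and 106 CPM in WT and 50.7, 53.9, 56.7 and 27.8 CPM in KO libraries (-0.89 ± 0.17; adjusted p = 0.00142), and its relative Pparg had 5.43, 2.68, 4.96 and 3.92 CPM in WT and 6.24, 8.01, 8.48 and 9.802 CPM in KO libraries (0.94 ± 0.21; adjusted p = 0.00245). Ppara was thus lower and Pparg higher in every KO library. Prox1 and the hypoxia factor gene Epas1 were lower at -0.81 ± 0.18 and -0.70 ± 0.10, and Nfe2l2, the NRF2 gene, and the TGFβ-inducible gene Klf10 higher at 0.71 ± 0.10 and 1.12 ± 0.21.

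Fatty acid hydroxylases of the Cyp4a family moved in opposite directions. Cyp4a14 had 36.7, 5.52, 59.95 and 65.5 CPM in WT and 691, 1322, 1429 and 2006 CPM in KO libraries (5.02 ± 0.61; adjusted p = 7.07e-05) and Cyp4a10 had 105, 31.7, 179 and 133 CPM in WT and 417, 749, 708 and 831 CPM in KO libraries (2.59 ± 0.39). Cyp4a12a, the form known for higher levels in male liver, had 337, 328, 342 and 365 CPM in WT and 97.9, 73.7, 45.8 and 57.8 CPM in KO libraries (-2.32 ± 0.27; adjusted p = 3.26e-05). KO libraries lay above the WT range in Cyp4a10 and Cyp4a14 and below it in Cyp4a12a. Cyp4a31 was also higher (3.11 ± 0.35), as was Ehhadh, a peroxisomal bifunctional enzyme gene (0.88 ± 0.20). Over 18 peroxisomal and microsomal genes, 7 were higher and 5 were lower (9 and 2 with library totals), or 66.7% called against 30.9% of all tested genes.

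Among genes of lipid uptake, storage and hydrolysis, Cd36, Lpl and Gpat3 were higher and Ces3b and Pnpla3 lower. Cd36, a fatty acid translocase gene, had 33.4, 30.7, 35.01 and 25.5 CPM in WT and 172, 122, 147 and 196 CPM in KO libraries (2.35 ± 0.14; adjusted p = 4.82e-09), and Lpl, lipoprotein lipase, had 27.1, 22.2, 25.97 and 21.1 CPM in WT and 70.9, 38.1, 55.6 and 71.04 CPM in KO libraries (1.29 ± 0.24). Gpat3, an acyltransferase gene of triglyceride synthesis, had 1.37, 1.48, 1.81 and 1.52 CPM in WT and 14.1, 20.1, 19.2 and 19.1 CPM in KO libraries (3.55 ± 0.15; adjusted p = 2.39e-11). These 3 were higher in every KO library. Ces3b, a liver carboxylesterase gene, had 845, 867, 850.2 and 825 CPM in WT and 484, 304, 228 and 215 CPM in KO libraries (-1.46 ± 0.19), and Pnpla3, a lipid droplet protein gene, had 5.84, 2.68, 0.835 and 1.27 CPM in WT and 0.612, 0.766, 0.614 and 0.437 CPM in KO libraries (-2.10 ± 0.48). The Pnpla3 value was -0.78 (adjusted p = 0.152) without WT replicates 1 and 2. Droplet coat and lipase genes had 3 higher and 10 lower of 24 (5 and 6 with library totals), and triglyceride and phospholipid synthesis genes 7 higher and 4 lower of 25 (10 and 3 with library totals). The shares called were 54.2% and 44%, against 30.9% of all tested genes. The droplet coat gene Plin2, at -0.31 ± 0.16, did not pass.

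In glucose metabolism 8 were higher and 6 were lower of 39 (14 and 3 with library totals), or 35.9% called against 30.9% of all tested genes. Pck1, the cytosolic form of the gluconeogenic enzyme PEPCK, was lower at -0.75 ± 0.13, and Pck2, the mitochondrial form, had 2.36 to 3.43 CPM in WT and 5.83 to 7.97 CPM in KO libraries (1.23 ± 0.17). Fbp1, also gluconeogenic, had 777, 698, 772 and 817 CPM in WT and 1373, 1396, 1436 and 1566 CPM in KO libraries (0.91 ± 0.10), while Pfkfb3, which activates glycolysis, was lower at -1.50 ± 0.31. All KO libraries were above the WT range in Fbp1. Of the NRF2 antioxidant genes 8 were higher and 2 were lower of 13 (9 and 2 with library totals), or 76.9% called. Osgin1 had 149, 140.3, 143 and 93.6 CPM in WT and 379, 503, 437 and 246 CPM in KO libraries (1.57 ± 0.35), and Nqo1, a quinone reductase gene, had 3.91, 2.72, 3.15 and 2.79 CPM in WT and 6.08, 8.96, 8.75 and 11.2 CPM in KO libraries (1.48 ± 0.17). Both were higher in every KO library, whereas Gclc and Gclm, of glutathione synthesis, stood at 0.14 ± 0.14 and 0.05 ± 0.09 and did not pass. Glutathione S-transferases had 6 higher and 4 lower of 21 (10 and 2 with library totals), with Gstm3 at 2.23 ± 0.33 and Gstp1 at -1.49 ± 0.15. Glucuronosyltransferases had 1 higher and 7 lower of 15 (5 and 5 with library totals), with Ugt1a9 at 2.21 ± 0.17 and Ugt2b1 at -1.43 ± 0.17. The shares called were 47.6% for glutathione S-transferases and 53.3% for glucuronosyltransferases, against 30.9% of all tested genes.

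Retinoid genes had 5 higher and 4 lower of 22 (12 and 3 with library totals), or 40.9% called against 30.9% of all tested genes. Aldh1a1, a retinaldehyde dehydrogenase gene, had 1065, 1124, 961 and 1123 CPM in WT and 1901, 1959, 2154 and 2260.4 CPM in KO libraries (0.95 ± 0.08), and Rarres1, a retinoic acid-inducible gene, had 62.7, 67.8, 40.99 and 50.9 CPM in WT and 24.03, 20.7, 13.8 and 11.8 CPM in KO libraries (-1.66 ± 0.27). KO libraries were above the WT range in the first and below it in the second. Sphingolipid enzymes had 2 higher and 1 lower of 19 (9 and 0 with library totals), cell adhesion genes 4 higher and 3 lower of 29 (15 and 1 with library totals), and guidance and teneurin genes 6 higher and 2 lower of 30 (15 and 0 with library totals), or 15.8%, 24.1% and 26.7% called with TMM. Among adhesion genes the cadherin genes Cdh1 and Cdh2 were lower at -0.84 ± 0.15 and -0.37 ± 0.07.

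In lists of the mitochondrial machinery the share called depended on the list and the scaling. Protein import had 4 higher and 2 lower of 34 (21 and 1 with library totals), cofactor synthesis 3 higher and 3 lower of 31 (12 and 1 with library totals), mitochondrial DNA maintenance 3 higher and 4 lower of 20 (9 and 1 with library totals), and fusion, fission and mitophagy 3 higher and 5 lower of 25 (11 and 0 with library totals). These were 17.6%, 19.4%, 35% and 32% called with TMM, against 30.9% of all tested genes. Of the 12 tested genes of the mitochondrial genome, 0 were higher and 6 were lower (0 and 3 with library totals). With 50% called, their median was -0.51. Their reads made up 7.03% ± 0.176 of gene reads in WT and 6.35% ± 0.251 in KO libraries (SD, n = 4; exact two-sided permutation p = 0.0286, 0.0476 adjusted). Tomm20, of the outer membrane import pore, Mfn2, of fusion, and Coq9, of coenzyme Q synthesis, stood at 0.15 ± 0.08, -0.10 ± 0.07 and -0.10 ± 0.06, none past the test. Opa1, of inner membrane fusion, was lower at -0.20 ± 0.06, but stood at 0.02 with library totals and did not pass (adjusted p = 0.826). Mitochondrial antioxidants had 5 higher and 1 lower of 14, or 42.9% called, with Gpx4, which reduces lipid peroxides, at 0.46 ± 0.08 and the peroxiredoxin gene Prdx5 at -0.58 ± 0.07.

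**Figure D4:**
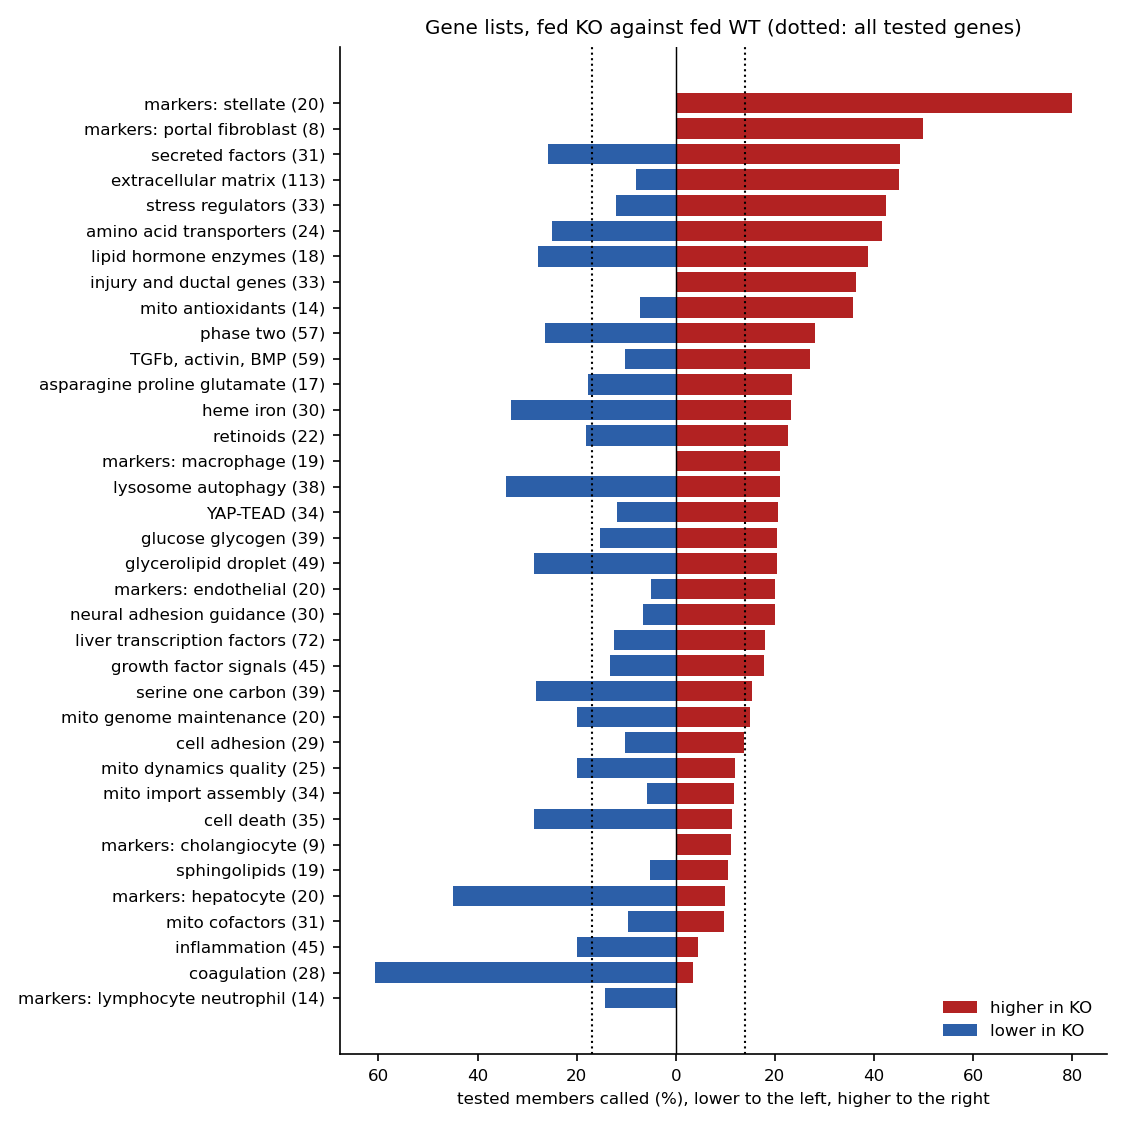
Share of tested members called higher (red, to the right) and lower (blue, to the left) in fed KO livers for 36 gene lists, in percent, with the number tested beside each name. Dotted lines mark the 14% higher and 16.9% lower among all tested genes; stellate markers (16 of 20) reach farthest to the right and coagulation genes (17 of 28) farthest to the left.

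The fed response was set beside that of the fasted livers through the test of their difference. The 2 genotype effects share no library. Fasted WT replicates 2 and 4 carried pancreatic acinar transcripts at 0.195% and 0.0534% of gene reads, against at most 0.00877% in the other libraries, so the differences below are also given without them. In the fasted comparison 3929 genes (28.3%) were called, and the difference between the effects was called for 237 genes (1.7%), 173 of which were called in the fed comparison. Cyp4a14 was among them, at 5.02 ± 0.61 fed and -0.02 ± 0.51 fasted, a difference of 5.05 ± 0.77 (SE; adjusted p = 0.0116). Cyp4a10 stood at 2.59 ± 0.39 and -0.18 ± 0.37 (difference 2.77 ± 0.53; adjusted p = 0.0244). Both hydroxylases were higher in KO in the fed comparison and near 0 in the fasted one. Chac1 was lower in fed KO livers at -1.12 ± 0.34 and stood at 1.86 ± 0.41 in fasted ones (difference -2.98 ± 0.54; adjusted p = 0.0142). Tuba8 differed by 2.19 ± 0.29 (adjusted p = 0.00239) between 3.84 ± 0.22 fed and 1.65 ± 0.19 fasted, and Gpat3 by 0.83 ± 0.20 (adjusted p = 0.0407) between 3.55 ± 0.15 and 2.72 ± 0.12. Serpina7 went the other way, with the larger effect after the fast at 6.18 ± 0.31 (difference -2.45 ± 0.37; adjusted p = 0.00813). Among matrix and cytokine genes, Col5a3 (-0.21 ± 0.11 fasted; adjusted p of the difference = 0.024), Acta2 (-0.65 ± 0.24; 0.045) and Lifr (-0.64 ± 0.10; 0.0134) also differed. Without fasted WT replicates 2 and 4, 72 genes were called in the test of the difference instead of 237, and without fed WT replicates 1 and 2, 64. Of the 17 named genes whose difference was called, 7 passed in the first of these fits and 9 in the second, and Cyp4a14, Mat1a, Nqo1, Serpina7 and Tuba8 passed in both. Cyp4a10 (adjusted p = 0.0779), Chac1 (0.0657), Gpat3 (0.0945), Col5a3 (0.0968) and Acta2 (0.113) did not pass without the 2 fasted libraries. Without the 2 fed libraries Chac1 (0.0688), Gpat3 (0.226), Acta2 (0.113) and Lifr (0.0514) did not pass. All kept their direction. Psat1, Asns, Col4a1 and Fgf21 did not differ past the test between the states, at fasted values of 4.75 ± 0.24, 3.61 ± 0.34, 1.06 ± 0.11 and 3.57 ± 0.37 and adjusted p of the difference of 0.895, 0.884, 0.613 and 0.977.

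**Figure D5:**
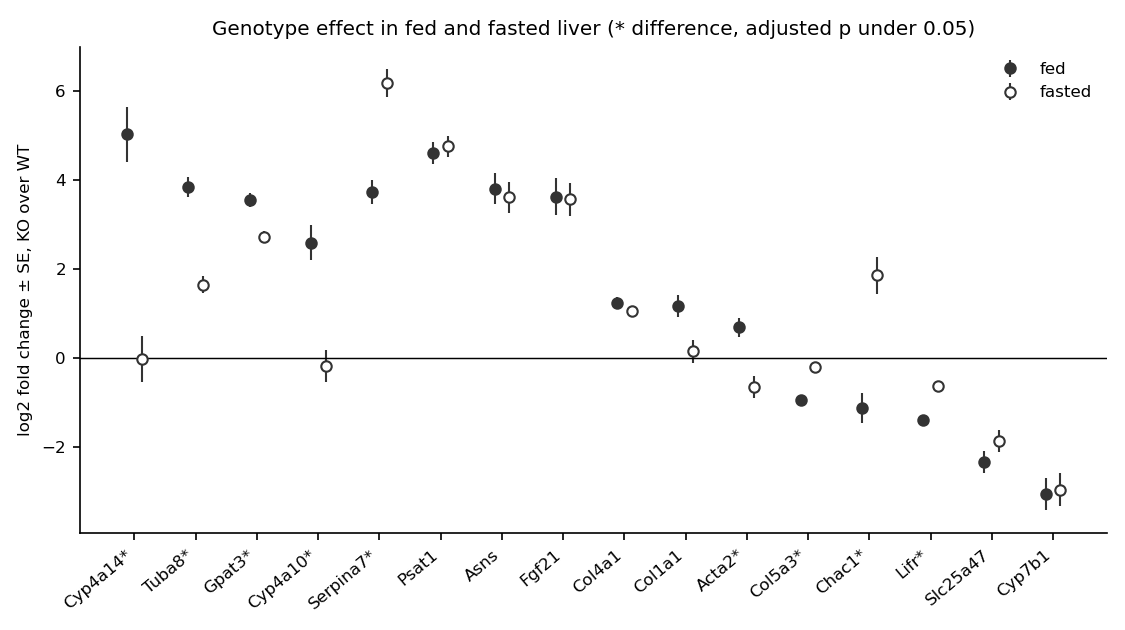
Log2 fold change, KO over WT, with its standard error in fed (filled) and fasted (open) livers for 16 genes named in the text. Cyp4a14, Cyp4a10, Tuba8, Gpat3, Chac1, Serpina7, Col5a3, Acta2 and Lifr, marked with an asterisk, passed the test of the difference between the states with all libraries.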

How the data were processed

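Read counts per gene were deposited by the authors as 1 table for 16 liver RNA-seq libraries. Per the submitters' processing notes, cutadapt 1.8, STAR 2.5.3a, HTSeq 0.9.1 and the build GRCm38 were used. With the strand setting and annotation release not given in the sources used here, overlapping and antisense genes cannot be told apart. The 5 summary lines that name no gene were left out. Reads aligned to several places made up 41.5% to 45.8% of reads in the fed WT and 31.97% to 39.3% in the fed KO libraries. The groups thus did not overlap in this share (exact two-sided permutation p = 0.0286, 0.0476 adjusted over 5 measures). Its effect on the counts of paralogs was not tested. Reads outside genes made up 2.98% to 3.62% in the fed libraries. Identifiers were matched to GENCODE M21, which held 99.82% of 53714. Promoter windows come from RefSeq.

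Genes passing filterByExpr were fitted with edgeR 4.0.16 (R 4.3.3): TMM scaling, 1 coefficient for each of the 4 groups over all 16 libraries, robust quasi-likelihood test of the fed KO minus fed WT contrast, Benjamini-Hochberg adjustment over all tested genes, threshold 0.05. SE is the log2 fold change divided by the root of F. The scripts were tested on simulated data. Alternatives were DESeq2 1.42.0 and its size factors, library totals, no filter, the 8 fed libraries alone, a replicate block, no robust estimation, a stricter threshold and leaving out libraries; the fits without fed WT replicates 1 and 2 or fasted WT replicates 2 and 4 were chosen after seeing the data.

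Genes named were the 12 largest rises and falls with a mean log2 CPM of at least 1 and groups that do not overlap, the 6 each way at 7 or more, list members, and Slc25a47 with its checks; not all of them are printed, and some members of the lists are not reported here. The gene lists and the choice of libraries were made with earlier results of these data known. Replicate numbers were used as names only. No label says that replicates are separate animals, so p-values measure the spread between these samples, which may be technical; within each group, pairs of libraries differed by a chi-square of 6.79 to 39.3 per gene, so each was counted as 1 sample.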

Additional observations from a re-analysis of the deposited data

Results flagged for a closer look

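In 21 of 350 groups of 4 libraries, from the 175 genes of the text, 1 library stood farther from the others than Dixon's 95% limit. Chance flags about 1 in 20 groups. The values below set that library against the range of the other 3 of its group.

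WT replicate 1 was apart in 3 genes. Socs3 had 54.5 CPM against 8.02 to 15.4 CPM. Gadd45a had 3.35 CPM against 1.18 to 1.25 CPM. Met, low there, had 77.7 CPM against 85.6 to 87.1 CPM. WT replicate 2 was apart in 5 genes. Prox1 had 136 CPM against 68.5 to 76.1 CPM. Lifr had 653 CPM against 542 to 556 CPM. Serpina12 had 155 CPM against 111 to 118 CPM. Aspg and Lamb2 were low in it, with 188 CPM against 208 to 209.8 CPM and 4.96 CPM against 6.44 to 6.72 CPM. WT replicate 4 was low in Anxa2, with 12.01 CPM against 14.9 to 15.4 CPM. It was low also in Osgin1, with 93.6 CPM against 140.3 to 149 CPM.

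In KO, replicate 1 was high in Acta2, with 12.3 CPM against 6.502 to 7.102 CPM. Ugt2b38 was high in it as well, with 7.51 CPM against 1.75 to 2.65 CPM. Gclc and Lamb1 were low in that library, with 308 CPM against 410.2 to 417 CPM and 13.95 CPM against 16.5 to 16.9 CPM. KO replicate 2 was high in Hamp, with 292 CPM against 64.3 to 79.5 CPM. Its Mmp19 stood at 53.4 CPM against 34.01 to 36.6 CPM. Gadd45a and Vwf were also high in it, with 11.3 CPM against 5.76 to 6.36 CPM and 16.6 CPM against 12.4 to 13.1 CPM. KO replicate 3 had a high Igfbp2, with 375 CPM against 312 to 316 CPM, and a low Ltbp4, with 37.4 CPM against 41.5 to 42.1 CPM. KO replicate 4 had a low Nupr1, with 14.3 CPM against 26.6 to 28.1 CPM.

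The genotype effect differed between fed and fasted livers for 17 of the genes named, by the test of the difference itself in edgeR's quasi-likelihood fit. The values are log2 differences, fed effect minus fasted effect, ± SE, followed by each effect and the adjusted p of the difference. The effect was higher fed in the oxidation genes Cyp4a14 (5.05 ± 0.77; 5.02 ± 0.61 fed, -0.02 ± 0.51 fasted; 0.0116), Cyp4a10 (2.77 ± 0.53; 2.59 ± 0.39 fed, -0.18 ± 0.37 fasted; 0.0244), Cyp4a31 (2.14 ± 0.46; 3.11 ± 0.35 fed, 0.98 ± 0.32 fasted; 0.0394) and Ehhadh (1.31 ± 0.29; 0.88 ± 0.20 fed, -0.43 ± 0.20 fasted; 0.0344). It was higher fed also in Tuba8 (2.19 ± 0.29; 3.84 ± 0.22 fed, 1.65 ± 0.19 fasted; 0.00239), Acta2 (1.33 ± 0.33; 0.68 ± 0.22 fed, -0.65 ± 0.24 fasted; 0.045) and Nqo1 (1.26 ± 0.23; 1.48 ± 0.17 fed, 0.22 ± 0.16 fasted; 0.0116). Smaller differences of that sign were those of Mat1a (0.94 ± 0.13; 0.66 ± 0.09 fed, -0.28 ± 0.09 fasted; 0.00239), Gpat3 (0.83 ± 0.20; 3.55 ± 0.15 fed, 2.72 ± 0.12 fasted; 0.0407) and Anxa4 (0.49 ± 0.09; 0.80 ± 0.06 fed, 0.31 ± 0.06 fasted; 0.0097). The effect was lower fed in Chac1 (-2.98 ± 0.54; -1.12 ± 0.34 fed, 1.86 ± 0.41 fasted; 0.0142), Serpina7 (-2.45 ± 0.37; 3.73 ± 0.26 fed, 6.18 ± 0.31 fasted; 0.00813) and C4a (-2.32 ± 0.52; -3.71 ± 0.37 fed, -1.39 ± 0.38 fasted; 0.0431). Further genes of that sign were Lifr (-0.77 ± 0.14; -1.40 ± 0.10 fed, -0.64 ± 0.10 fasted; 0.0134), Inhbc (-0.79 ± 0.17; -0.65 ± 0.12 fed, 0.13 ± 0.12 fasted; 0.0308), Col5a3 (-0.73 ± 0.15; -0.93 ± 0.11 fed, -0.21 ± 0.11 fasted; 0.024) and Ftcd (-0.68 ± 0.17; -0.77 ± 0.12 fed, -0.09 ± 0.12 fasted; 0.0431). Without fasted WT replicates 2 and 4 the difference was still called in 7 of the 17, and without fed WT replicates 1 and 2 in 9.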

How the results depend on the processing

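The number of called genes stayed within 1.5 times of 4299 under each scaling, filter, test and fit tried, but its split did not. With library totals in place of TMM 4886 genes were higher and 915 lower, and 783 and 255 by at least 2-fold. Of the 4299 calls, 2863 were also made with library totals and 4226 with DESeq2 size factors. At the stricter adjusted p under 0.01, 2449 (1074 higher, 1375 lower) were called. Other fits gave 4257 (DESeq2 size factors), 3779 (no filter, of 25622 genes), 4393 (DESeq2 Wald test), 3718 (8 fed libraries alone) and 4324 (no robust estimation). Leaving out 1 fed library at a time gave 3202 to 4492 genes, fewest without KO replicate 3 and most without KO replicate 2, with 1430 to 2025 higher and 1772 to 2467 lower. At least 2-fold, these were 749 to 1016, 415 to 524 and 334 to 507.

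The fit with a replicate block called 4340 (2003 higher, 2337 lower). Of the named genes it gained the calls of Krt19 and Lrat and lost that of Tgfb1 (adjusted p = 0.0562). Same-numbered KO and WT libraries deviated together with r from -0.0166 to 0.0515 across genes, and only replicate 1 matched best with its own number, so the numbers were not taken as pairs. Both alternatives chosen after seeing the data kept the count within 1.5 times. Without fasted WT replicates 2 and 4 it was 4343, and without fed WT replicates 1 and 2 it was 2908. Of the 4299 calls with all libraries, these fits shared 4105 and 2619. In those fits the test of the difference between fed and fasted effects called 72 and 64 genes, against 237 with all libraries.

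Over the 175 named genes and 17 alternatives each, 2897 values kept their direction and side of the threshold, 60 lost a call and 17 gained one. One reversed, Opa1 with library totals (log2 fold change 0.0192). Cth missed the threshold with no filter (adjusted p = 0.0512) as well as without fed WT replicates 1 and 2 (0.148). The cause of these changes was not tested.

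The KO minus WT difference in the share of gene reads from the 20 most abundant genes ranged from -3.57 to -2.62 percentage points with 1 library left out. For mitochondrially encoded genes it ranged from -0.798 to -0.598, and for reads aligned to several places, as a share of all, from -10.1 to -7.64. With a WT library left out, the adjusted p of the exact permutation test reached up to 0.0952 for those 3. So few libraries allow only coarse p-values, and with all libraries the groups did not overlap in those 3 measures. Summed blood and pancreas genes ranged from -0.00664 to -0.00317 and from -0.00145 to -0.000747 points, with a call without KO replicate 1 and KO replicate 3.

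Depth limits the genes with few reads. Phgdh and Timp1 were not tested, and for genes such as Cyp2b9, with 14 counts over the 4 WT libraries, the size of the fold is not fixed by these data.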
